A study of Homo sapiens with 12 samples.

Results

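RNA levels of chromosome 6 genes were examined in 12 libraries of DAOY, a human medulloblastoma cell line. A gene was taken when its row was placed on chromosome 6, its mean level over the 12 libraries was at least 5 TPM, a transcript unit scaled for gene length and for the sum of a library, and its name held no dot. Histone, HLA, collagen, LAMA and ribosomal protein genes and a list of single genes (VEGFA, CTGF, CDKN1A, EDN1, ID4, THBS2, TAP1, TAP2, PSMB8, PSMB9, TNF, IER3, SGK1, CITED2, CCND3, PERP and H2BFS) were left out. This gave 566 genes among the 63677 gene identifiers of the tables, with 313 on the short arm and 253 on the long arm, separated at 61 Mb. The chromosome was selected on the values themselves, because its genes had lower levels in NOTCH2KO than in WT. The NOTCH2KO values of these genes are therefore a description, and calls made on them are not read as a test.

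The groups were parental DAOY cells (WT) and lines in which NOTCH1 (NOTCH1KO) or NOTCH2 (NOTCH2KO) had been disrupted by CRISPR/Cas9, with 1 line per knockout. The 4 cultures of each genotype combined a plate coating, either Fc fragment or Jagged1, which is a Notch ligand, with a treatment of 12 h, either DAPT, which inhibits γ-secretase, or its solvent DMSO. There was 1 library per combination, so that each genotype had 4 libraries, and the error of every comparison was the departure from additive genotype and culture effects, not the spread between independent cultures.

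Chromosome 6 carries the major histocompatibility complex on its short arm, and between and around it genes for every general cell function, such as chaperones, proteasome subunits, translation factors and ribosome assembly factors. These genes share a chromosome and not a pathway. Notch receptors are cleaved by γ-secretase after ligand binding, and the freed intracellular domain acts in the nucleus with the DNA-binding protein RBPJ, also called CSL, which recognises the core letters GTGGGAA.

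The promoters of 4 members are shown, because PIM1 and ARHGAP18 were among the genes with the lowest NOTCH2KO levels relative to WT on the short and the long arm, RBM24 went in the opposite direction, and NCOA7 had the largest mean response to Jagged1 among the genes of the culture comparisons described later. The letters are the 250 bases upstream of a RefSeq transcript start (GRCh38.p14), 5′ to 3′ in the direction of transcription, with GTGGGAA on either strand in capitals. NCOA7 has 3 listed starts, and the promoter shown was picked because it holds the letters. The promoters of its other listed starts do not hold them. Neither does that of DSP, another gene of the culture comparisons. No link between the letters and a response to Jagged1 is read from this choice.
PIM1, chr6:37169902-37170151, plus strand: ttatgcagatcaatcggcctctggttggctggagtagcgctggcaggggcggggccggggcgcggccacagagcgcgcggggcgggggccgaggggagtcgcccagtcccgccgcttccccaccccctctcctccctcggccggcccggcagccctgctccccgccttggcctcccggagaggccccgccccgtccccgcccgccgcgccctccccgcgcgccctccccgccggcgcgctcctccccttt
ARHGAP18, chr6:129710178-129710427, minus strand: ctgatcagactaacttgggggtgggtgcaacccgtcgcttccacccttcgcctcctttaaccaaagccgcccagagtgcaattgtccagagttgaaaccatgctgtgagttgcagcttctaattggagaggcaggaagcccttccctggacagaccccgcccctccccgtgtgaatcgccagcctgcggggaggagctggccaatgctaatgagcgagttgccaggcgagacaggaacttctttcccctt
RBM24, chr6:17281814-17282063, plus strand: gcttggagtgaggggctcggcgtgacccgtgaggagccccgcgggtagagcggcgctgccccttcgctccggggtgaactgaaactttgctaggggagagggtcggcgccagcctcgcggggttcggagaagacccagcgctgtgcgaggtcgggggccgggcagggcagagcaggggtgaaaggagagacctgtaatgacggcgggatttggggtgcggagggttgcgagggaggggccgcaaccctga
NCOA7, chr6:125790710-125790959, plus strand: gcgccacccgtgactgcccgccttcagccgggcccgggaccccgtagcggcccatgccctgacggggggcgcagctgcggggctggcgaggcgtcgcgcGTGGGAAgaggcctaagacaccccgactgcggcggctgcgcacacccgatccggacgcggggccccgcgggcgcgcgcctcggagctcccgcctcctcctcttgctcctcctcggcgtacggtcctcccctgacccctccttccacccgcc
Of the 566 genes, 442 matched the RefSeq promoter table by symbol, and 19 of the 442 first-listed promoters (4.30%) held GTGGGAA on either strand, against 5.46% of the 27305 first-listed promoters of all genes. Among the matched genes called lower in NOTCH2KO by limma at an adjusted p under 0.05, a call made for 7.35% of all genes tested, 10 of 143 held it (6.99%), namely C6orf141, C6orf62, CENPQ, CYB5R4, E2F3, RIPK1, SYNJ2, TAF11, TBCC and WASF1 (named after their values were seen), and among the other matched genes 9 of 299 held it (3.01%). The E-box CACGTG, which reads the same on both strands, was found in 8.82% of the member promoters and 6.49% of all promoters. It was in 6.99% of the promoters of genes called lower and in 9.70% of those of the other matched genes. Median GC content was 64.0% in the member promoters and 58.0% in all promoters, with 62.8% for genes called lower and 64.8% for the others. Because the chromosome was chosen on this contrast, no link of letters and levels is read from the split by call. These matches describe the letters of a window, not binding.

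Depth, computed by dividing the coverage by the FPKM values, was 18.3 to 22.4 M reads per library, and 17064 to 17790 genes were at a TPM of at least 1. NOTCH1 had a TPM of 3.19 ± 0.337 in WT and 0.565 ± 0.249 in NOTCH1KO (SD, n = 4), a log2 difference of −1.43 (adjusted p = 0.000436, limma). NOTCH2 had 80.7 ± 9.56 in WT and 50.7 ± 7.95 in NOTCH2KO, so that its RNA was lower but still abundant, and every NOTCH2KO library (41.6 to 60.5) was below every WT library (74.9 to 94.9). Of markers of neural progenitors and medulloblastoma, VIM (mean TPM 4454), ZIC2 (12.4), PAX6 (16.1) and SOX2 (5.28) were present, while ATOH1 (0.0282) and NEUROD1 (0.0522) were near 0. Of the 15 markers looked for, TUBB3 had 2 gene identifiers, and 9 identifiers were at a mean TPM of at least 1 and 7 under it, namely ATOH1, NEUROD1, GFAP, GLI1, MAP2, MYCN and 1 of TUBB3. NES, the nestin gene of neural progenitors, had a mean TPM of 3.24, with 0.730 in WT.

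Levels of chromosome 6 genes were lower in NOTCH2KO than in WT on both arms. In bulk RNA, fewer cells with a transcript and less RNA per cell cannot be told apart. On the log2(TPM + 1) scale, which understates the change of low genes, the median NOTCH2KO minus WT difference over the 566 genes was −0.26 (quartiles −0.42 and −0.05), with −0.28 on the short arm and −0.23 on the long arm. The 10795 genes of the other chromosomes taken by the same level and name criteria had a median of 0.08, with quartiles of −0.14 and 0.30. The median ratio of mean TPM was 0.824 for chromosome 6 genes and 1.06 for the others. Of the 566 genes, 453 (80.0%) had a difference below 0, where 42.6% of the 17621 genes tested did. Chromosome 6 had the lowest median of all chromosomes, and chromosome 9 followed with −0.12.

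**Figure D1:**
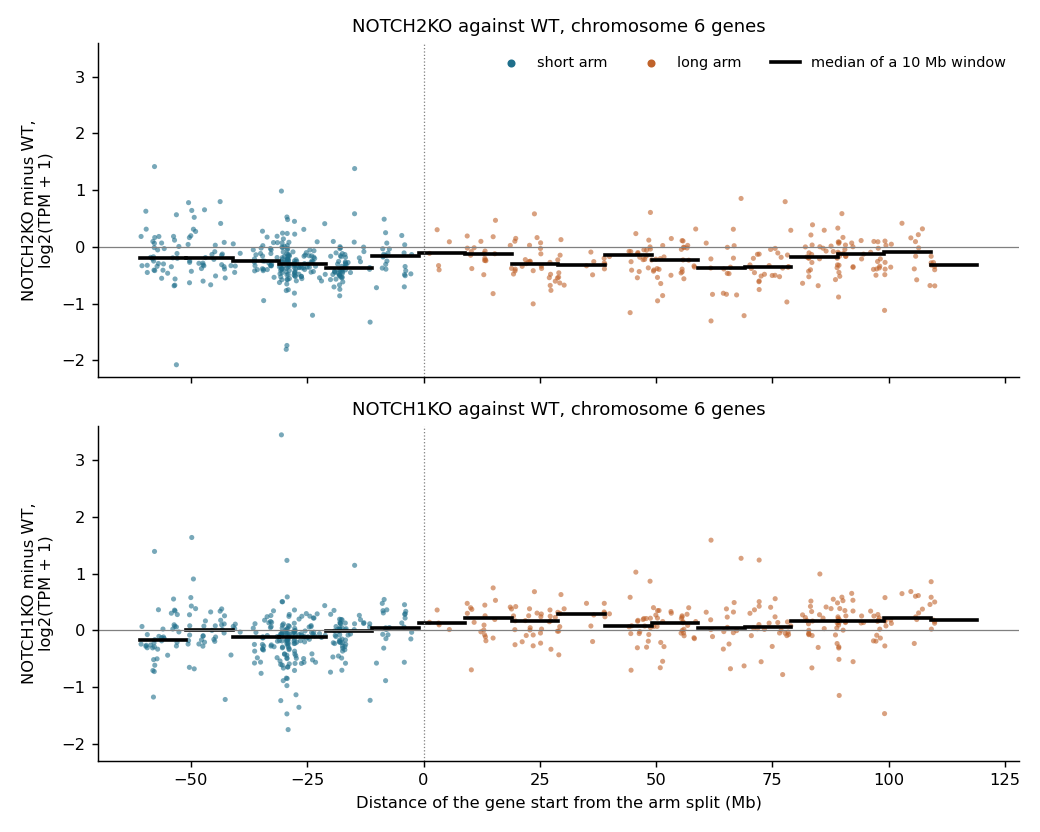
Difference from WT on the log2(TPM + 1) scale for the 566 chromosome 6 genes in NOTCH2KO (top) and NOTCH1KO (bottom), against the distance of the gene start from the split of the arms in Mb (negative values, short arm). Each point is 1 gene and black bars are medians of 10 Mb windows, which all lie below 0 in NOTCH2KO (from −0.38 to −0.09), while in NOTCH1KO most short arm windows lie below 0 and every long arm window above it.

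The difference had a similar size in each culture. On the short arm the median was −0.28 on Fc with DMSO, −0.29 on Fc with DAPT, −0.26 on Jagged1 with DMSO and −0.30 on Jagged1 with DAPT (SD of the 4 medians 0.0165). On the long arm it was −0.21, −0.19, −0.26 and −0.31 in the same order (SD 0.0520), so that the arms differed by more on Fc than on Jagged1. The NOTCH2KO level was below WT in all 4 cultures for 293 genes (51.8%), against 18.7% of all genes tested. All 4 NOTCH2KO libraries were below all 4 WT libraries for 192 genes (33.9%), 120 on the short arm and 72 on the long arm, against 9.78% of all genes tested.

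At an adjusted p under 0.05 in limma, 174 of the 566 genes were called lower in NOTCH2KO, 104 on the short arm and 70 on the long arm, where 7.35% of all genes tested were called lower. For 10 genes the call was higher, 9 of them on the short arm, where 12% of all genes tested were called higher. Because the chromosome was chosen for this contrast, nothing is read from these counts. Calls of single genes in NOTCH2KO given below, and their loss in other settings, are likewise a description. Leaving out the WT library on Fc with DMSO gave 107 lower calls, and there were 111 and 113 without the WT libraries on Jagged1 with DMSO or DAPT, and 114 and 111 without the NOTCH2KO libraries on Fc with DMSO and on Jagged1 with DAPT. The higher calls numbered 6 without either WT library in DMSO or without the NOTCH2KO library on Fc with DMSO.

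**Figure D2:**
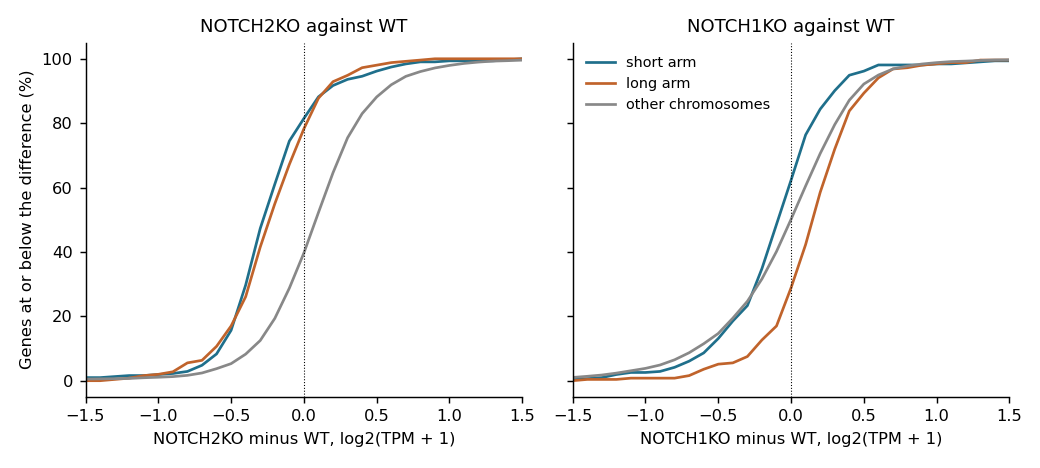
Share of genes (%) at or below each difference from WT on the log2(TPM + 1) scale, for the short arm (313 genes), the long arm (253) and the other chromosomes (10795), in NOTCH2KO (left) and NOTCH1KO (right). In NOTCH2KO the curves of both arms run close to each other and to the left of the other chromosomes, and in NOTCH1KO the long arm runs to the right and the short arm near the other chromosomes.

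The summed level of the 566 genes was 4.204, 4.48, 4.50 and 4.62% of all TPM in the WT libraries, 4.53, 4.74, 4.50 and 4.59% in NOTCH1KO, and 3.63, 3.59, 3.83 and 3.72% in NOTCH2KO, each given for the Fc plates (DMSO, then DAPT) and next for the Jagged1 plates (DMSO, then DAPT). The NOTCH2KO libraries were the lowest 4 of the 12. Without EEF1A1, the translation elongation factor that was the most abundant long arm member, the shares were 4.23 ± 0.181% in WT and 3.49 ± 0.109% in NOTCH2KO (SD, n = 4). The difference was larger for abundant genes. The median was −0.15 for 77 members at a mean TPM of 5 to 10, −0.23 for 291 members at 10 to 50 and −0.33 for 198 members from 50, where the other chromosomes had 0.13, 0.10 and 0.04. The median ratio of mean TPM, which carries no pseudocount, was lower in the same order, with 0.886, 0.841 and 0.791.

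The lower level extended along the chromosome. Among the 15 windows of 10 Mb with at least 15 genes the median ranged from −0.38 to −0.09, and the lowest were those from 40 to 50 Mb (−0.38, 56 genes) and from 120 to 130 Mb (−0.38, 18 genes). The window from 30 to 40 Mb, which holds most of the histocompatibility complex and had the most genes (120), had a median of −0.31, and that from 160 to 170 Mb (18 genes) had the median nearest to 0. Windows of other chromosomes ranged from −0.42 to 0.65. Of those 248 windows, 32 were at or below the highest chromosome 6 window, and the lowest, from the start of chromosome 12 to 10 Mb (70 genes), was below every window of chromosome 6. The 508 protein-coding members had a median of −0.27, while the 49 pseudogenes had −0.08. The 61 chromosome 6 genes at a TPM of at least 5 that were left out by name had a median of −0.18, with 49 below 0.

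On the short arm, PIM1 (ENSG00000137193, chr6:37137979-37143202, GRCh37), a serine/threonine kinase and proto-oncogene, had TPM values of 53.6, 51.5, 62.6 and 55.7 in WT and 21.5, 23.3, 24.5 and 25.1 in NOTCH2KO, in the order of cultures given for the shares. The groups did not overlap, and the difference was −1.21 on the log2 scale (SE 0.13). NOTCH1KO had 40.2, 29.8, 54.2 and 33.7, all above NOTCH2KO, and its library on Jagged1 with DMSO (54.2) was within the WT range.

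PFDN6 (ENSG00000204220, chr6:33257079-33266178), a subunit of the prefoldin complex that hands unfolded actin and tubulin to chaperonin, had 212, 227, 200.4 and 228 in WT and 100, 107, 99.7 and 116 in NOTCH2KO (−1.03, SE 0.16). Its neighbour WDR46 (chr6:33246885-33257304), a nucleolar factor of ribosomal RNA processing, had 191, 178, 172 and 169.9 in WT and 99.4, 106, 96.6 and 99.2 in NOTCH2KO (−0.82, SE 0.11). For both genes every NOTCH2KO library was below every WT library. Since they lie on opposite strands next to each other and the use of strand in the counting is not stated in the sources, reads at their border could not be told apart.

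KLHDC3 (ENSG00000124702, chr6:42981951-42989036), a substrate receptor of a cullin ubiquitin ligase, had 80.4, 86.1, 89.6 and 81.3 in WT and 44.1, 47.0, 43.8 and 48.7 in NOTCH2KO (−0.86, SE 0.10). TOMM6 (chr6:41755400-41757636), a small subunit of the translocase of the outer mitochondrial membrane, had 449, 453, 391 and 463 in WT and 270.1, 277, 254 and 271 in NOTCH2KO (−0.71, SE 0.07). HSP90AB1 (chr6:44214824-44221620), the constitutive cytosolic HSP90 chaperone and the most abundant of the 566 genes, had 2681, 2597, 2774 and 2787 in WT and 1974, 2068, 2132 and 1999 in NOTCH2KO (−0.41, SE 0.06). The NOTCH2KO values of these 3 genes were within a narrow range in all 4 cultures and below every WT value.

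On the long arm, ARHGAP18 (ENSG00000146376, chr6:129897277-130031370), a GTPase-activating protein, had TPM values of 19.2, 16.2, 20.6 and 22.5 in WT and 7.88, 6.66, 8.42 and 8.54 in NOTCH2KO (−1.21, SE 0.14). LIN28B (ENSG00000187772, chr6:105404923-105531207), an RNA-binding protein that blocks maturation of let-7 microRNAs, had 6.96, 5.98, 9 and 6.45 in WT and 2.57, 2.66, 2.68 and 2.44 in NOTCH2KO (−1.16, SE 0.13). RPF2 (ENSG00000197498, chr6:111303218-111349466), an assembly factor of the large ribosomal subunit, had 103, 104, 123 and 108 in WT and 56.0, 55.4, 58.0 and 54.2 in NOTCH2KO (−0.95, SE 0.08). The NOTCH2KO libraries of each gene lay close together and far below WT. In NOTCH1KO, in contrast, LIN28B (9.53 to 13.0) and RPF2 (125 to 154) were above every WT library.

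PSMB1 (ENSG00000008018, chr6:170844205-170862429), a catalytic-core subunit of the proteasome near the end of the long arm, had 985, 1035, 1061 and 1133 in WT and 807, 807, 838 and 856 in NOTCH2KO (−0.35, SE 0.05). PKIB (chr6:122793076-123047518), an inhibitor of protein kinase A, had 4.01, 4.04, 2.30 and 4.28 in WT and under 1 TPM in every NOTCH2KO library (0.717 to 0.951), a difference of −1.31 that was −0.08 and no longer called when coverage replaced TPM. SOD2 (chr6:160090089-160183561), the manganese superoxide dismutase of mitochondria, had 320.5, 417, 461 and 400.0 in WT and 139, 229.5, 197 and 174 in NOTCH2KO (−1.12, SE 0.20). In TPM all 3 genes were without overlap between WT and NOTCH2KO. The other long arm genes with the lowest values were RIPPLY2 (−1.01, not called in 10 of 21 other settings), a transcriptional repressor of somite segmentation, CCDC28A (−0.97) and RAET1E (−0.89), a ligand of the natural killer receptor NKG2D, and on the short arm C6orf141 (−1.33, not called in 4 of 21 other settings) and ZNF322, which was not called. The ZNF322 value of −0.95 rested on the NOTCH2KO library on Fc with DMSO, at 1.34 against 8.06 to 9.31 in the other NOTCH2KO libraries, and was −0.46, and called lower, without it.

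**Figure D3:**
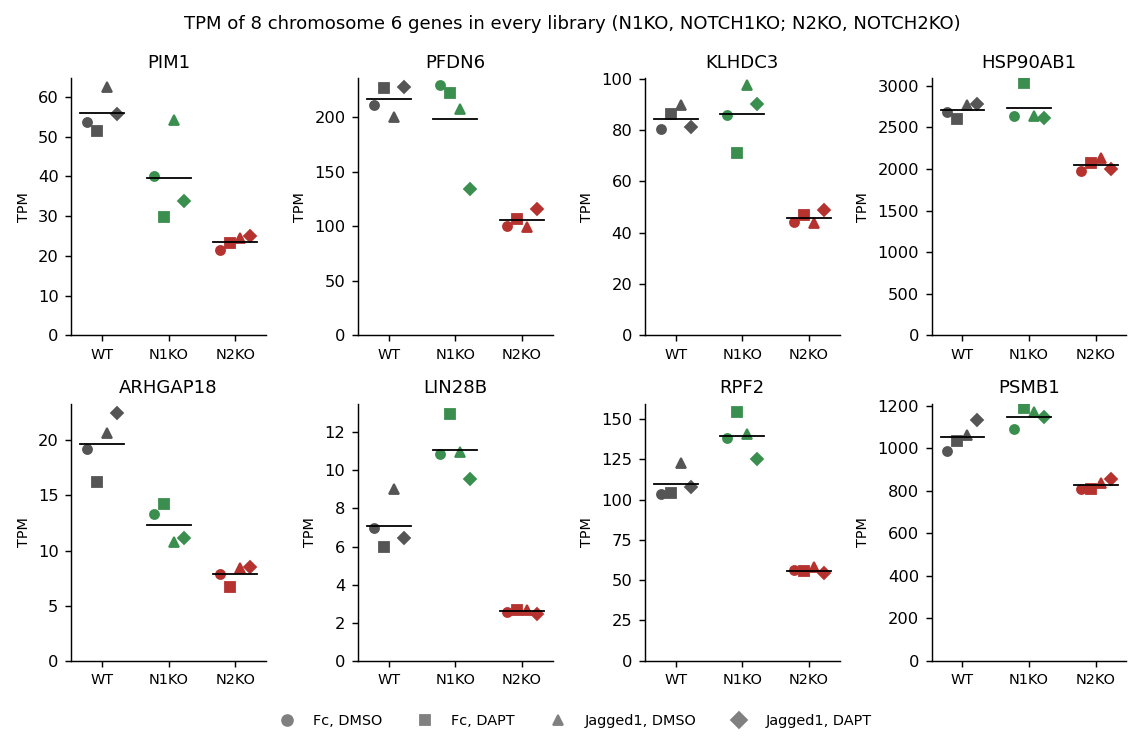
TPM (linear axis from 0) of 8 chromosome 6 genes in every library, by genotype, with a symbol for each culture and a bar for the mean of 4 libraries. The upper row holds short arm and the lower row long arm genes, and in each panel the 4 NOTCH2KO libraries are below the 4 WT libraries, as for RPF2 with 54.2 to 58.0 against 103 to 123. The 8 genes were picked with these values known, and this separation held for 33.9% of the 566 members. Abundant members whose groups overlapped, such as EEF1A1 and FLOT1, are not shown.

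Some members had higher levels in NOTCH2KO. RBM24 (chr6:17281577-17294106), an RNA-binding splicing regulator of muscle, had 7.04, 6.45, 8.59 and 6.09 in WT and 11.7, 13.2, 13.9 and 12.7 in NOTCH2KO (0.80, SE 0.12). RCAN2 (chr6:46188475-46459709), a regulator of calcineurin, had 5.30, 5.33, 1.90 and 8.40 in WT and 11.9, 13.2, 12.9 and 18.6 in NOTCH2KO (1.38, SE 0.27). GCNT2 (chr6:10492456-10629601), the enzyme that branches the blood group I antigen, had 8.41, 9.28, 5.32 and 11.4 in WT and 14.01, 15.9, 14.3 and 15.9 in NOTCH2KO (0.78, SE 0.15). The groups of these 3 genes did not overlap. All 4 NOTCH2KO libraries were above all 4 WT libraries for 14 members (2.47%), against 15% of all genes tested. The remaining genes called higher were NEDD9, RNF182, FOXQ1, CAP2, TMEM14A and the pseudogenes ACTG1P9 and MESTP1, of which FOXQ1, CAP2, TMEM14A and ACTG1P9 were named after their values were seen. The call was lost in 3 of 21 other settings for NEDD9 and in 4 for MESTP1. The highest long arm values were those of MESTP1 (0.85), HEBP2 (0.80), MICAL1 (0.61), PLEKHG1 (0.59) and KIAA1009 (0.58), and that of HEBP2, a heme-binding protein, rested on 1 NOTCH2KO library at 88.0 with the others at 9.48 to 14.1.

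The members were assigned to 8 functional lists that together held 293 of the 566 genes, and the median difference was below 0 in each. The calls in these lists are a description, to be read beside the 30.7% of the 566 genes and 7.35% of all genes tested that were called lower, and the 1.77% and 12% called higher. In RNA processing and ribosome assembly (39 genes) it was −0.38, 36 genes were below 0, 17 were called lower and 0 higher. RPF2, WDR46 and DDX39B, an RNA helicase of splicing and mRNA export, had the lowest values of the list (−0.95, −0.82 and −0.77), and QKI, a splicing regulator, and NUP43, a nuclear pore subunit, the highest (0.42 and 0.33). DDX39B overlapped between the groups, with 325 ± 41.5 in WT and 197 ± 71.8 in NOTCH2KO (SD, n = 4).

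Kinases, receptors and signalling proteins (36 genes) had a median of −0.36 with 14 called lower, and followed PIM1 and ARHGAP18 with PTPRK, a receptor tyrosine phosphatase, at 70.6 ± 9.87 in WT and 39.1 ± 8.57 in NOTCH2KO. Protein folding, ubiquitin and proteasome genes (31) had a median of −0.35 with 14 called lower. After PFDN6 and KLHDC3 the lowest was AKIRIN2, a nuclear import factor of proteasomes, at 58.8 ± 8.16 and 33.9 ± 0.98. The highest values of that list were those of TXNDC5 (0.57), a protein disulfide isomerase whose gene overlaps a read-through gene, and HSPA1A (0.48), the inducible HSP70, which shares nearly all its sequence with HSPA1B.

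Cell cycle, DNA replication and DNA repair genes (29) had a median of −0.33, with 25 below 0, 13 called lower and 0 higher. ORC3, a subunit of the origin recognition complex, had 65.0 ± 4.02 in WT and 46.2 ± 3.90 in NOTCH2KO, CENPW, a centromere protein, had 133 ± 5.26 and 96.1 ± 10.8, and TUBE1, the epsilon tubulin of centrioles, had 31.4 ± 10.99 and 16.4 ± 3.03. At the other end, the meiotic protein MSH5 had 22.7 ± 6.404 and 22.7 ± 4.69. Mitochondrial proteins (31 genes) had a median of −0.30 with 30 below 0 and 11 called lower, among them RARS2, the mitochondrial arginyl-tRNA synthetase, at 50.96 ± 3.98 and 31.4 ± 1.84. Chromatin and transcription regulators (45) had −0.28 with 16 called lower, including JARID2, a component of Polycomb repressive complex, at 17.3 ± 8.05 and 9.95 ± 2.29 and TAF11, a TFIID subunit, at 67.1 ± 5.06 and 45.1 ± 1.02.

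The smallest differences were those of metabolic enzymes and transporters (42 genes, median −0.22, 12 called lower) and of cytoskeleton, adhesion and membrane traffic (40 genes, median −0.15, 8 called lower). GLO1, the glyoxalase that removes methylglyoxal, had 276 to 314 in the WT and 189.7 to 219 in the NOTCH2KO libraries, and SMPDL3A, an acid sphingomyelinase-like phosphodiesterase, had 18.9 ± 1.52 and 10.1 ± 0.529. In the last list 27 of 40 genes were below 0, and MICAL1, an oxidase of actin filaments, and the motor MYO6 had the highest values (0.61 and 0.47), which were not called. None of the 3 Notch pathway genes looked for on the chromosome reached a mean TPM of 5. DLL1, a Notch ligand, was at 2.58 to 3.80 in WT and at 4.43 to 5.91 in NOTCH2KO, HEY2, a Notch target, at 1.95 to 6.398 and 1.29 to 2.24, and NOTCH4 was under 1 TPM in every library.

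Other named members of the lists showed the same mixture. COX7A2, a subunit of cytochrome c oxidase, had 405 ± 251 in WT and 221 ± 152 in NOTCH2KO, with groups that overlapped, while FARS2, the mitochondrial phenylalanyl-tRNA synthetase, had 27.3 ± 2.22 and 26.6 ± 0.698. CDYL, a chromodomain protein, had 36.1 ± 6.59 and 24.0 ± 2.26 (−0.56, but −0.17 and no longer called when coverage replaced TPM), and the histone deacetylase HDAC2 had 146 ± 17.3 and 172 ± 66.0 (0.15, but −0.30 with coverage in place of TPM). PEX6, an ATPase of peroxisome import, had 45.5 ± 4.13 and 28.2 ± 2.41, and MAN1A1, a Golgi mannosidase, had 14.2 ± 2.58 and 17.8 ± 2.83. KLC4, a kinesin light chain whose lower call was lost in 10 of 21 other settings, had 35.3 ± 5.83 and 21.4 ± 7.09, and IGF2R, the receptor that carries lysosomal enzymes, had 87.7 ± 9.22 and 89.4 ± 11.5, within the spread of the libraries.

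**Figure D4:**
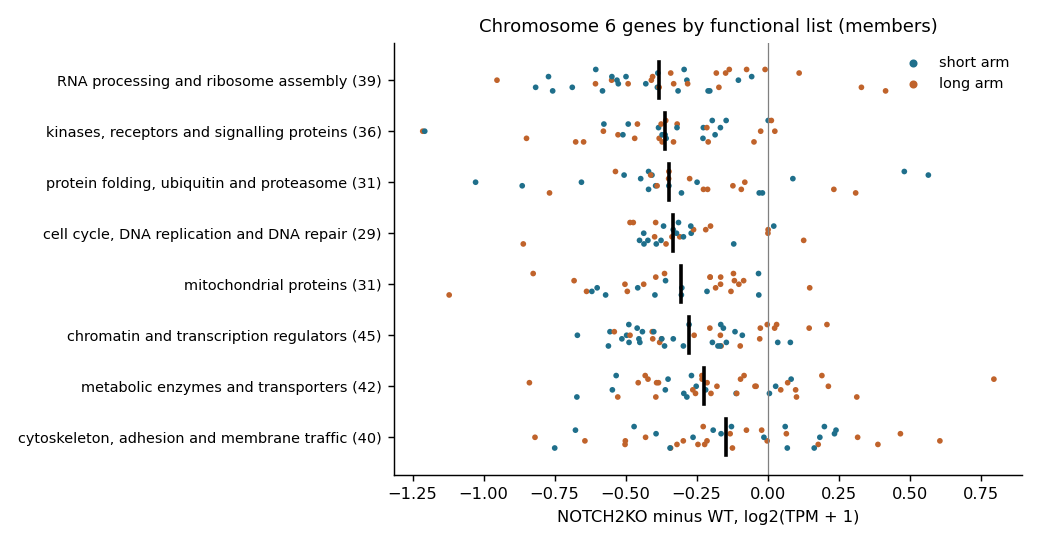
NOTCH2KO minus WT difference on the log2(TPM + 1) scale for members of 8 functional lists, 1 point per gene (blue, short arm, and orange, long arm), with the number of genes in parentheses and a black bar at the median. The medians run from −0.38 for RNA processing and ribosome assembly to −0.15 for cytoskeleton, adhesion and membrane traffic, and points of both arms are spread over each list.

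Of the most abundant members, HSP90AB1, TOMM6 and PSMB1 were lower as described, but EEF1A1 had 2147, 2477, 2063 and 1954 in WT and 2027, 2157, 2087 and 1913 in NOTCH2KO (−0.07, SE 0.06), and FLOT1, a scaffold of membrane rafts, had 588 ± 62.7 and 582 ± 47.8. These groups overlapped. CLIC1, a chloride intracellular channel protein, had 777 ± 68.2 and 919 ± 134. TUBB, a beta tubulin, was at 710.0 in the WT library on Fc with DMSO and between 2050 and 2875 in the other WT libraries, against 2015 to 2299 in NOTCH2KO. HMGA1 had 692 ± 389 and 568 ± 346, with a wide spread in both groups.

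In NOTCH1KO the median of the short arm was also below 0, and that of the long arm was above it. The comparison shares the WT libraries with that of NOTCH2KO. Over the 566 genes the median NOTCH1KO minus WT difference was 0.01, with −0.09 on the short arm and 0.16 on the long arm, and −0.00 on the other chromosomes, and 62.3% of short arm and 28.9% of long arm genes were below 0. By culture, the short arm median was −0.05, −0.08, −0.12 and −0.10, and the long arm median was 0.21 and 0.30 on Fc but 0.01 and 0.06 on Jagged1. At an adjusted p under 0.05, 57 members were higher (20 on the short arm and 37 on the long arm) and 76 were lower (60 and 16), where 10.7% and 12.8% of all genes tested were higher and lower, and the shares of members were 10.1% and 13.4%. On the short arm 6.39% were higher and 19.2% lower, on the long arm 14.6% and 6.32%, and on the other chromosomes 12.2% and 13.9%. With libraries centred on their medians the counts were 80 higher and 64 lower. For this and the other settings the shares of all genes tested are not given. These counts are therefore not read as particular to chromosome 6. The higher calls numbered 30 and 27 without the WT libraries on Fc with DMSO and with DAPT and 35 without either NOTCH1KO library on Fc, and the lower calls 49 and 43 without the same WT libraries, 50 without the WT library on Jagged1 with DMSO and 50 without the NOTCH1KO library grown on Fc in DMSO. In NOTCH1KO the lists went both ways, with 8 higher and 2 lower calls in RNA processing and ribosome assembly (median 0.10), 3 and 9 in kinases, receptors and signalling proteins (−0.06), 6 and 3 in chromatin and transcription regulators (0.10), 1 and 5 in mitochondrial proteins (0.00), 5 and 1 in metabolic enzymes and transporters (0.02), 3 and 2 in the cell cycle list (0.13), 3 and 4 in the cytoskeleton list (0.10) and 1 and 3 in the folding and proteasome list (0.02). Set beside NOTCH1KO, NOTCH2KO had a median difference of −0.19 on the short arm and −0.36 on the long arm.

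Among the genes with the largest changes in NOTCH1KO, NEDD9, a scaffold of focal adhesions, rose from 23.4, 18.6, 14.3 and 21.6 in WT to 71.2, 64.8, 48.6 and 64.6, a log2 difference of 1.64 (SE 0.15, adjusted p = 0.000298, limma). PKIB rose to 9.49, 10.6, 14.1 and 18.6 (1.59, SE 0.21, adjusted p = 0.00169). ATG5, which is required for autophagosome formation, rose from 31.8 ± 3.22 to 66.5 ± 13.3 (1.03, adjusted p = 0.00694), and the pseudogene MESTP1 rose by 1.27 (adjusted p = 0.00324). In TPM, PKIB was above WT in NOTCH1KO and below it in NOTCH2KO, with no overlap among the 3 genotypes, but with coverage in place of TPM the differences were 0.35 and −0.08.

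CFB, complement factor B, fell from 6.68, 12.9, 8.11 and 12.1 in WT to 3.05, 1.31, 2.16 and 2.36 in NOTCH1KO (−1.75, SE 0.30, adjusted p = 0.00521, limma), and was at 13.4, 4.42, 8.60 and 10.7 in NOTCH2KO, which overlapped WT. SOD2 fell to 141, 94.1, 211 and 148 (−1.47, SE 0.20, adjusted p = 0.00196), so that it was below WT in both knockouts. C6orf1 (−1.36, adjusted p = 0.00421) and RPP21 (−1.24, adjusted p = 0.00675), a protein subunit of ribonuclease P, fell as well. RCAN2 rose by 1.15 (adjusted p = 0.0173) and C6orf141 fell by 1.23 (adjusted p = 0.0340), but RCAN2 did not pass without the WT library on Fc with DAPT or the NOTCH1KO libraries on Fc with DAPT or on Jagged1 with DMSO, and C6orf141 did not pass in 8 of 21 other settings. Of genes described above as lower in NOTCH2KO, PIM1 (−0.52, adjusted p = 0.0223, limma) and ARHGAP18 (−0.63, adjusted p = 0.0136) also fell in NOTCH1KO. PIM1, ARHGAP18, SOD2 and C6orf141 were named for low NOTCH2KO values against the same WT libraries. That choice favours a fall here, so no shared effect of the knockouts is read from their p-values. LIN28B (0.58, adjusted p = 0.0127), RPF2 (0.35, adjusted p = 0.0158) and TOMM6 (0.35, adjusted p = 0.00868) rose in NOTCH1KO. PFDN6, KLHDC3, WDR46 and HSP90AB1 did not pass there (adjusted p from 0.511 to 0.933).

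The cultures asked whether Jagged1 or DAPT moved these genes. No member passed limma's test at an adjusted p under 0.05 for Jagged1 against Fc in DMSO, for DAPT against DMSO on Jagged1 or for DAPT against DMSO on Fc, over the 3 genotypes, where 0.0114% (higher) and 0% (lower), 0% and 0.0284%, and 0.017% and 0.017% of all genes tested passed. At an unadjusted p under 0.05 there were 79, 70 and 29 members (13.96, 12.4 and 5.12%), against 10.8, 11 and 6.14% of all genes tested. The median difference for Jagged1 against Fc was −0.00 on the short arm and 0.12 on the long arm, and for DAPT against DMSO on Jagged1 it was 0.03 and −0.07. Without the NOTCH2KO library on Jagged1 with DMSO, NCOA7 and ENPP1 passed for Jagged1 against Fc, and NCOA7, ENPP1, PPP1R14C and DSP (lower) and GCNT2 (higher) passed for DAPT on Jagged1. These genes were named after their values were seen.

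NCOA7, a nuclear receptor coactivator, had TPM values of 69.0, 50.4, 155 and 46.6 in the WT libraries, 77.8, 57.9, 217.5 and 74.6 in those of NOTCH1KO and 32.8, 34.7, 55.8 and 37.4 in NOTCH2KO. The library on Jagged1 with DMSO was the highest of each genotype. Over the 3 genotypes Jagged1 against Fc was 1.13 (SE 0.23, adjusted p = 0.220) and DAPT against DMSO on Jagged1 was −1.27 (SE 0.23, adjusted p = 0.107). ENPP1, an ectonucleotidase that forms pyrophosphate, had 4.76, 3.67, 13.1 and 3.92 in the WT libraries, 6.90, 5.87, 13.9 and 5.34 in those of NOTCH1KO and 4.02, 3.33, 4.08 and 3.80 in NOTCH2KO. Its Jagged1 against Fc difference in DMSO was 1.30 in WT, 0.91 in NOTCH1KO and 0.02 in NOTCH2KO.

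PPP1R14C, an inhibitor of protein phosphatase 1, had 17.4, 11.5, 41.1 and 13.7 in the WT libraries, 24.4, 20.6, 41.2 and 16.8 in those of NOTCH1KO and 12.1, 12.6, 14.1 and 11.6 in NOTCH2KO. DSP, the desmosomal plaque protein desmoplakin, had 50.1, 25.04, 104 and 33.8, then 60.4, 34.1, 78.8 and 33.5, and 28.5, 20.9, 44.7 and 24.1, and came nearest to passing for DAPT on Jagged1 (−1.22, SE 0.18, adjusted p = 0.0820). For these 4 genes the Jagged1 library with DMSO of WT and of NOTCH1KO was above every other library of its genotype. A term for the NOTCH2KO library on Jagged1 with DMSO, added after the data were seen, was −1.17 for ENPP1 (SE 0.23, adjusted p = 0.308), −1.03 for PPP1R14C (adjusted p = 0.554), −0.90 for NCOA7 (adjusted p = 0.563) and −0.38 for DSP (adjusted p = 0.936). It passed for 0 of the 566 genes in limma, where 2 (higher) and 4 (lower) of the 17621 genes tested passed. At an unadjusted p under 0.05 in limma there were 35 of the 566 members, against 1144 of the 17621 genes tested, which are similar shares. A smaller response of these genes in NOTCH2KO was thus not shown. With all NOTCH2KO libraries left out no member passed either, in a limma fit with 3 residual degrees of freedom. Among NCOA7, ENPP1, PPP1R14C, DSP, GCNT2 and FOXQ1, the smallest adjusted p of that fit was 0.0803, for NCOA7 and DAPT on Jagged1.

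**Figure D5:**
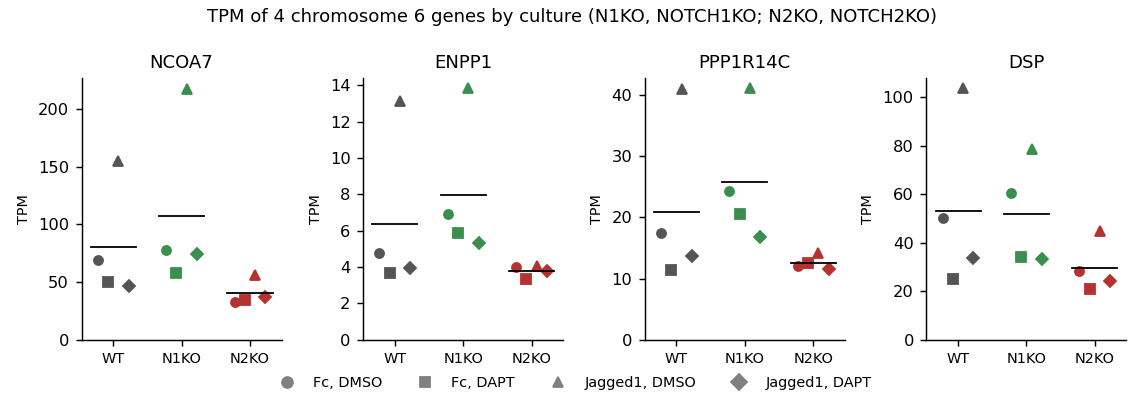
TPM (linear axis from 0) of NCOA7, ENPP1, PPP1R14C and DSP in every library, by genotype, with a symbol for each culture and a bar for the mean of 4 libraries. The triangles, Jagged1 with DMSO, stand above the other libraries of WT and NOTCH1KO, as for ENPP1 with 13.1 and 13.9. In NOTCH2KO the ENPP1 triangle (4.08) is near the other libraries. The log2 Jagged1 minus Fc difference in DMSO within NOTCH2KO was 0.02 for ENPP1, 0.21 for PPP1R14C, 0.63 for DSP and 0.75 for NCOA7.

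Some extreme values belonged to read-through genes and pseudogenes, for which the treatment of shared reads is not stated in the sources and its part was not tested. BLOC1S5-TXNDC5, a read-through transcript with the lowest short arm value (−2.08), was listed at 0 in 10 of the 12 libraries and at 318 in WT on Fc with DAPT and 376 in NOTCH1KO on Jagged1 with DAPT. TXNDC5, which it overlaps, was at 28.1 and 8.66 in those same libraries and between 288 and 439 in the others. The other such genes with values far from 0 were the read-through gene CSNK2B-LY6G5B-1181 (−1.74) and the pseudogenes PPIAP9 (−1.81), RANP1 (0.98) and TUBB2BP1 (1.42), none of which was called. Near the level limit, C6orf141 (mean TPM 5.01) and RBBP4P4 (5.04) were just inside it, with 8.79 and 5.27 in WT and 2.99 and 4.72 in NOTCH2KO, and OGFRL1 (4.91) and YWHAZP4 (4.96) just outside, with 5.67 and 0 in WT and 4.27 and 0 in NOTCH2KO.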

How the data were processed

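Poly-A RNA of DAOY cells was made into stranded TruSeq libraries and read as single 51-base reads, with bcl2fastq 2.17, CASAVA and GRCh37 named in the submitters' processing notes. Not given in the sources used here are the aligner, the quantifier, its use of strand and what was done with multimapping reads. The TPM values, as deposited by the authors, took account of gene length and summed to the same total in each library. Within each library the deposited FPKM values were TPM times a constant, which differed between libraries, and the deposited coverage values were unscaled mean read depths. TPM was summed per gene identifier and gene types came from GENCODE 29.

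Log2(TPM + 1) values of 17621 genes (mean TPM from 1) were fitted in R 4.3.3 with limma 3.58.1 with a mean-variance trend and additive genotype and culture terms (6 residual degrees of freedom). P-values were adjusted by the Benjamini-Hochberg method over all genes, with a threshold of 0.05, and the fit was tested on simulated data. Members and lists were chosen with earlier results of these data known, and lists are described by counts and medians. Named genes were, per arm, the 8 lowest and 6 highest NOTCH2KO values, the 5 largest rises and falls that passed in NOTCH1KO, the 10 highest mean TPMs, the 3 lowest and 2 highest of each list, and the 4 genes nearest to the level limit. Alternatives were another pseudocount, other filters on low values, FPKM, coverage, median centring, chromosome 6 left out of the library sum, library weights, fits with 1 term and each library left out in turn.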

Additional observations from a re-analysis of the deposited data

Results flagged for a closer look

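In 20 of 228 groups of 4 libraries 1 library stood apart from the other 3 by Dixon's criterion, and the libraries concerned were 8 of the 12. Chance flags about 1 in 20 groups when the 4 values repeat the same condition. Here each group held 4 different cultures, and the genes flagged were named genes, many named for extreme values. No excess over chance is therefore read from this number. The part of sequencing, read assignment or culture in these values was not tested.

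Several of these values were those of read-through genes, the genes they overlap, and pseudogenes. BLOC1S5-TXNDC5 stood at 318.4 in WT on Fc with DAPT and 375.9 in NOTCH1KO on Jagged1 with DAPT, with 0 in the other libraries of each genotype, while TXNDC5 stood at 28.09 and 8.663 in the same libraries, far below the rest. RANP1 stood at 279.3 in WT on Jagged1 with DMSO against 4.645 to 17.61, and TUBB2BP1 at 46.49 in NOTCH1KO and 49.49 in NOTCH2KO, both on Jagged1 with DAPT, with 0 in the others.

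Among other genes, COX7A2 stood at 761.9 in NOTCH1KO on Fc with DAPT (others 211.1 to 243.9) and at 449.6 in NOTCH2KO on Jagged1 with DAPT (others 136.4 to 156.8), HEBP2 at 88.04 in NOTCH2KO on Jagged1 with DAPT (others 9.477 to 14.12), and DDX39B at 434.3 and NUP43 at 90.28 in NOTCH1KO on Jagged1 with DAPT. NOTCH1KO on Fc with DAPT also stood high for HSP90AB1 (3036), ORC3 (86.45) and RCAN2 (17.15), and NOTCH1KO on Jagged1 with DMSO for MICAL1 (17.88). In WT on Jagged1 with DMSO, TAF11 stood high (74.67) and PKIB low (2.299). BCKDHB was low in WT on Fc with DMSO (7.594, others 13.37 to 13.65), and ZNF322 in NOTCH2KO on Fc with DMSO (1.342, others 8.064 to 9.306).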

How the results depend on the processing

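The arm medians of NOTCH2KO minus WT stayed below 0 in every setting run. The short arm was at −0.32 with FPKM, −0.27 with coverage, −0.38 with median-centred libraries and −0.30 for members at a mean TPM of at least 10, and −0.30 to −0.27 with 1 library left out. The long arm was at −0.32 with median-centred libraries and −0.27 to −0.19 with 1 library left out. In NOTCH1KO the short arm was at −0.12 with FPKM and −0.036 with median-centred libraries. With 1 library left out, NOTCH2KO had 107 to 200 lower and 6 to 12 higher calls (16 higher with coverage), and NOTCH1KO 27 to 54 higher and 43 to 73 lower calls. The shares of all genes tested that were called in these settings are not given. These counts are therefore not read as particular to chromosome 6. For the cultures the ranges were 0 to 2 higher for Jagged1 against Fc (NCOA7 and ENPP1), 0 to 1 higher and 0 to 4 lower for DAPT on Jagged1, and library weights gave 1 lower call for DAPT on Fc, FOXQ1. The lone higher call for DAPT on Jagged1 was GCNT2 without the NOTCH2KO library on Jagged1 with DMSO and TUBB2BP1 without the WT library on Jagged1 with DAPT. HDAC2 went from 0.15 to −0.30 when coverage replaced TPM, and the cause was not tested. PKIB in NOTCH2KO went from −1.31 to −0.08 with coverage and was then not called. Of values not called in either unit, coverage gave −0.21 for DDX39B, −0.09 for QKI and −0.02 for HEBP2. The culture term of the model served as the block that pairs libraries of the same culture, and without it NOTCH2KO had 161 lower calls. Each genotype was 1 line and each culture 1 library, so that a difference of genotype and of line cannot be told apart.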
